A study of Mus musculus with 12 samples.

Results

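The circadian clock genes form a transcriptional loop that keeps daily time inside almost every mammalian cell. Here 10 of its genes (Arntl, Clock, Per1, Per2, Per3, Cry1, Cry2, Nr1d1, Nr1d2 and Dbp) were taken by Ensembl identifier from 21753 genes listed in either of 2 expression tables. All 10 were among the 21650 genes of the ribose table and 8 were among the 13178 genes of the AAV table, where Arntl and Per3 were not listed. The study sequenced polyadenylated RNA of L4-6 dorsal root ganglia, the sensory ganglia that feed the sciatic nerve, from 8-week C57BL/6J mice. All mice had a spinal cord injury, and tissue was taken 72 h later. AAV-TKT and AAV-GFP mice had received, through the sciatic nerve and for 4 weeks, an adeno-associated virus carrying either transketolase, an enzyme of the pentose phosphate pathway, or green fluorescent protein. Ribose and Vehicle mice had received either 10% ribose, a sugar that can enter that pathway, or vehicle, with no virus named. Each of the 4 groups held 3 libraries. The sources used here do not give the promoter of the viral construct, the pooling of animals or the hour of collection. They also leave unsaid whether the libraries of a group came from different animals, so p-values may measure technical spread only.

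In the core of the clock, the proteins CLOCK and BMAL1 (the product of Arntl) bind E-box elements and switch on the Per and Cry genes, whose products then shut the pair off. A second loop runs through the REV-ERB repressors, encoded by Nr1d1 and Nr1d2, which silence Arntl through ROR response elements. In mouse tissues Arntl transcripts are known to peak in opposite phase to those of Dbp and the Nr1d genes, with the Per genes close behind, so the balance of these transcripts is read as the time of day a tissue was taken. Per1 and Per2 are also known to answer to neuronal activity and to glucocorticoids.

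The elements through which these genes are known to drive each other were looked for on both strands, to show how far the gene starts themselves carry the loop's known letters. RefSeq (GRCm38.p6) gave windows from 250 bases before to 50 bases after the start for 9 of the 10 genes, 13 windows in all. Per2 had no window and was not searched. The E-box was searched as CACGTG, its variant as CACGTT, the D-box, to which DBP binds, as TTANGTAA with N as T or C, and the ROR response element by its consensus. No pair of these patterns shares letters in the sites printed. Each site is shown within 30 bases of the gene's strand, with the match in capitals, and the positions given are those of the 30 bases. AACGTG is CACGTT read on the other strand. The E-box lay within chr10:85185097-85185126 in Cry1 and within chr11:69098771-69098800 in Per1. The variant lay within chr10:85185116-85185145 in Cry1, chr2:92434218-92434247 in Cry2 and chr11:98775388-98775417 in Nr1d1. Per3 held a pair of D-boxes, within chr4:151044852-151044881 and chr4:151044805-151044834, and Arntl held a ROR response element within chr7:113207528-113207557. The Per1 and Arntl sites are on the plus strand and the others on the minus strand. The Per1 site lies inside the annotated gene (chr11:69095217-69109960), before an internal start and not at the gene's first base.
Cry1 E-box: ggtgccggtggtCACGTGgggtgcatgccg
Per1 E-box: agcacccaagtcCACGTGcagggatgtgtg
Cry1 E-box variant: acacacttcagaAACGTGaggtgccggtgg
Cry2 E-box variant: acacatggtgggAACGTGagggggcggagc
Nr1d1 E-box variant: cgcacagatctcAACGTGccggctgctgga
Per3 D-box, farther site: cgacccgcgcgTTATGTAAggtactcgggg
Per3 D-box, nearer site: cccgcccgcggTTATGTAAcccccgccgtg
Arntl ROR response element: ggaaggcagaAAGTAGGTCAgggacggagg
Of 32851 promoter windows of the same length, 7.15% held the E-box, 4.68% the variant, 1.06% the D-box and 0.77% the ROR response element. Of the 13 clock gene windows, 2 held the E-box, 3 the variant, 1 the D-box and 1 the ROR response element. By gene, the counts were the same, out of 9 genes. A match describes letters in these windows and does not show that a factor bound there.

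Library totals ran from 413635 to 456084 FPKM (fragments per kilobase, a level corrected for gene length and library size) in the AAV table and from 510551 to 551370 FPKM in the ribose table, and the read depth is unknown. Pairs of libraries correlated at 0.972 to 0.985 in the AAV table and at 0.924 to 0.966 in the ribose table, on log2(FPKM + 1), across genes. Tkt, the gene carried by the virus, stood at 223, 259 and 262 FPKM in AAV-TKT libraries, against 106, 101.7 and 98.1 FPKM in AAV-GFP libraries (log2 change 1.27, SE 0.0843, limma adjusted p = 0.0054). All 10 sensory neuron markers were listed in both tables, and markers of glia, fibroblasts and blood were present too. In such bulk tissue, fewer cells of a type and less RNA per cell cannot be told apart.

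In the AAV experiment, transketolase was raised in injured ganglia, and none of the 8 listed clock genes passed the test. Nr1d2 was the one whose AAV-TKT libraries all lay above the AAV-GFP libraries, by 1.15-fold, and Per1 averaged 0.809 times its AAV-GFP level with overlapping libraries. The others lay between 0.835 and 1.10 times their AAV-GFP level. The test was limma on log2(FPKM + 1), so that all log2 changes below are on that scale, with Benjamini-Hochberg adjustment over all 13178 genes and a threshold of 0.05. It called 0 of the 8 genes, where 0.0152% of all genes were called. At an unadjusted p under 0.05 it held 2 of the 8, against 10.6% of all genes, and 1 of the 8 had groups that did not overlap, against 18.5% of all genes.

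Among the activators, Clock, the partner of BMAL1, had 12.0, 13.2 and 13.7 FPKM in AAV-TKT libraries, against 13.4, 14.5 and 12.8 FPKM in AAV-GFP libraries. The groups overlapped, and the log2 change was -0.06 (SE 0.0817, limma adjusted p = 0.8). The gene lies at chr5:76209868-76304792 on the minus strand of GRCm38, the build of all positions given here.

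Among the repressors of the core loop, Per1 (chr11:69095217-69109960, plus strand) had 5.26, 4.10 and 4.25 FPKM in AAV-TKT libraries, against 5.78, 5.20 and 5.83 FPKM in AAV-GFP libraries. AAV-TKT replicate 1 lay just above AAV-GFP replicate 2, and the other AAV-TKT libraries lay below every AAV-GFP library. The log2 change was -0.26 (95% interval -0.51 to -0.0054, limma unadjusted p = 0.0464, adjusted p = 0.469). Per2 (chr1:91415982-91459324, minus strand), whose product dimerises with CRY proteins to block CLOCK and BMAL1, had 1.58, 1.51 and 1.85 FPKM in AAV-TKT libraries, against 2.10, 1.68 and 2.13 FPKM in AAV-GFP libraries. AAV-TKT replicates 1 and 2 were below all AAV-GFP libraries and replicate 3 was not. Its log2 change was -0.17 (95% interval -0.46 to 0.13, limma adjusted p = 0.634).

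The cryptochromes, the CRY arm of the same repressor complex, had overlapping AAV groups. Cry1 (chr10:85131700-85185064, minus strand) had 4.34, 3.98 and 3.84 FPKM in AAV-TKT libraries, against 4.37, 4.16 and 4.33 FPKM in AAV-GFP libraries. Cry2 (chr2:92403646-92434043, minus strand) had 33.0, 31.5 and 31.0 FPKM in AAV-TKT libraries, against 30.7, 30.4 and 31.6 FPKM in AAV-GFP libraries. In neither gene did one group lie apart from the other. Their log2 changes were -0.07 for Cry1 (95% interval -0.27 to 0.14, limma adjusted p = 0.8) and 0.04 for Cry2 (95% interval -0.10 to 0.19, limma adjusted p = 0.815), and both changed sign under quantile normalization, as did Cry2 under equal totals.

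Of the REV-ERB repressors, Nr1d2 (chr14:18204054-18239127, minus strand) had 10.9, 10.9 and 11.4 FPKM in AAV-TKT libraries, against 9.46, 9.90 and 9.58 FPKM in AAV-GFP libraries. Each group was tight, and they did not overlap. The means were 11.1 ± 0.283 FPKM in AAV-TKT libraries and 9.65 ± 0.227 FPKM in AAV-GFP libraries (SD, n = 3 each), with a log2 change of 0.18 (95% interval 0.02 to 0.34, limma unadjusted p = 0.0325, adjusted p = 0.441). A two-sided exact permutation test gave p = 0.1, which is the lowest value possible with 3 libraries a group. Nr1d1 (chr11:98767932-98775333, minus strand), the other REV-ERB gene, had 2.68, 2.42 and 3.39 FPKM in AAV-TKT libraries, against 3.41, 2.68 and 3.35 FPKM in AAV-GFP libraries. These groups overlapped (log2 change -0.12, 95% interval -0.44 to 0.20, limma adjusted p = 0.757), so the paralogs had log2 changes of opposite sign, neither of which passed.

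Dbp (chr7:45705088-45710203, plus strand), a transcription factor of the PAR bZIP family that is a direct output of CLOCK and BMAL1, had 3.75, 2.70 and 3.97 FPKM in AAV-TKT libraries, against 3.39, 2.78 and 3.32 FPKM in AAV-GFP libraries. AAV-TKT libraries were the highest and the lowest of the 6. The log2 change was 0.09 (95% interval -0.24 to 0.42, limma adjusted p = 0.821). By annotation, exons of Dbp share 539 bases (18.0% of its exonic length) with Sphk2, and those of Nr1d1 share 263 bases (8.5%) with Thra, each on the opposite strand. The libraries kept strand, but the sources used here do not say whether the counting used it, and without it the reads of such pairs cannot be told apart.

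**Figure D1:**
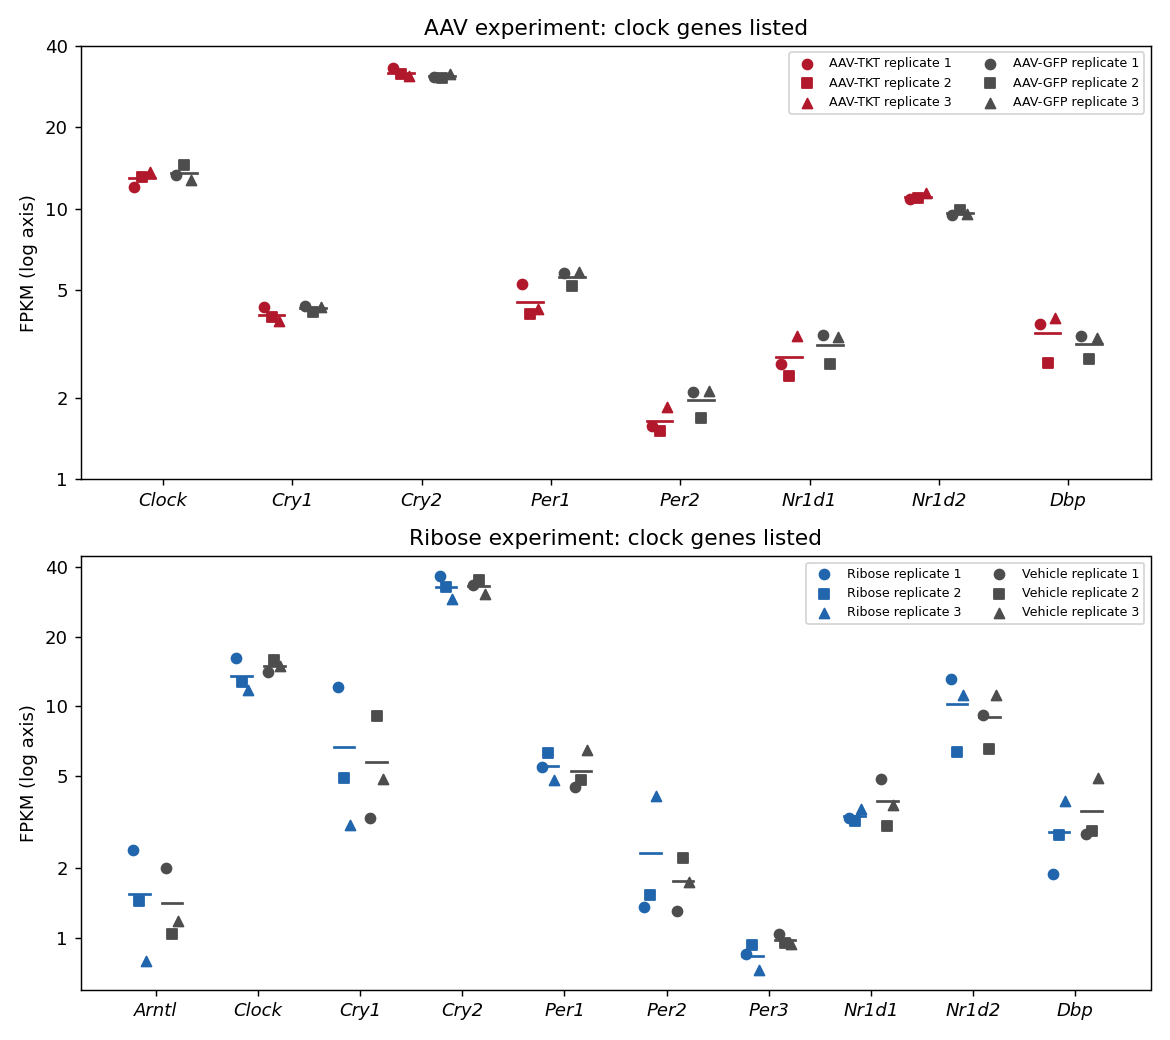
FPKM of each clock gene (log axis) in every library, with the AAV groups and the ribose groups drawn separately; points are libraries and short lines are group means. Nr1d2 is the AAV-table gene whose AAV-TKT libraries (10.9 to 11.4 FPKM) all lie above the AAV-GFP libraries (9.46 to 9.90 FPKM), and Cry1 is spread from 3.08 to 12.1 FPKM among the ribose-experiment libraries.

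Other cell types moved with the AAV groups. Summed neutrophil markers (7 of 7 listed) ran from 19.4 to 30.6 FPKM in AAV-TKT libraries, against 94.0 to 254 FPKM in AAV-GFP libraries. Red-cell markers (5 of 5 listed) ran from 71.5 to 94.2 FPKM in AAV-TKT libraries, against 113 to 471 FPKM in AAV-GFP libraries. Schwann cell markers (7 of 7 listed) ran from 352 to 384 FPKM in AAV-TKT libraries, against 424 to 445 FPKM in AAV-GFP libraries. Sensory neuron markers ran from 7757 to 8614 FPKM in AAV-TKT libraries, against 6571 to 7395 FPKM in AAV-GFP libraries. Of the 10 sensory neuron markers, 7 had positive log2 changes and 3 (Isl1, Scn9a and Scn10a) had negative ones. In 5 of the 10 all AAV-TKT libraries were higher, where 18.5% of all genes did not overlap in either direction. None of these 4 lists overlapped between the groups as a sum, none of their genes passed the test, and no listed marker was at 0. The satellite glia and fibroblast lists overlapped as sums, and none of the 5 endothelial markers was listed in the AAV table. The 2 of 7 macrophage markers listed did not overlap as a sum, at 2.22 to 3.63 FPKM in AAV-TKT libraries, against 3.73 to 5.29 FPKM in AAV-GFP libraries. The part of these cells in the Nr1d2 and Per1 values was not tested.

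In the ribose experiment, a pentose sugar was given to injured mice, and none of the 9 clock genes tested passed. No gene tested had groups that did not overlap, against 9.63% of all genes, and none reached an unadjusted p under 0.05, against 4.79% of all genes. limma called 0.00724% of the 13804 genes that averaged 1 FPKM or more, and every clock gene had an adjusted p of 1. Single libraries stood far from the rest of their group, and the intervals were wide.

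Markers of other cell types were compared between the ribose groups too. Summed Schwann cell markers ran from 409 to 500 FPKM in Ribose libraries, against 545 to 615 FPKM in Vehicle libraries, with no overlap. Pmp22 made up most of that sum, averaging 301 of 460 FPKM in Ribose libraries and 342 of 570 FPKM in Vehicle libraries. All 7 Schwann cell markers had negative log2 changes. By gene, 0 of the 7 had groups that did not overlap, against 9.63% of all genes. As a mean of log2(FPKM + 1), from the mean of the table, the list overlapped. Ribose replicates 1 (0.20) and 3 (0.13) lay above Vehicle replicate 2 (-0.04). All 5 satellite glia markers had negative log2 changes (median -0.90), and their sum ran from 269 to 900.2 FPKM in Ribose libraries, against 624 to 1460.3 FPKM in Vehicle libraries. The sums of the other 6 cell type lists overlapped, and limma called 0 markers of any list. Ribose replicate 2 had the lowest mean level of the 6 libraries for satellite glia (-1.39 on log2(FPKM + 1) from the mean of the table), Schwann cell (-1.05), fibroblast (-0.91), neutrophil (-1.67) and red-cell (-2.38) markers. In Ribose libraries 1 neutrophil, 1 red-cell, 1 endothelial and 5 macrophage markers were at 0 in at least 1 library, against 1 macrophage marker in Vehicle libraries. Without replicate 2 of both groups, limma again called 0 clock genes. The part of these cells in the clock gene values was not tested.

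Arntl (chr7:113207465-113314126, plus strand), which encodes BMAL1, had 2.39, 1.44 and 0.796 FPKM in Ribose libraries, against 2.00, 1.04 and 1.18 FPKM in Vehicle libraries. Replicate 1 of each group was the highest, and Ribose replicate 3 lay below every other library. The log2 change was 0.05 (95% interval -0.73 to 0.83, limma adjusted p = 1), with the opposite sign under quantile normalization. Clock had 16.2, 12.7 and 11.8 FPKM in Ribose libraries, against 14.0, 15.9 and 15.0 FPKM in Vehicle libraries. Ribose replicate 1 was the highest of the 6 and the other Ribose libraries were the lowest. Clock had the smallest p of the clock genes here, with a log2 change of -0.14 (95% interval -0.51 to 0.22, limma adjusted p = 1, exact permutation p = 0.4).

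The Per genes overlapped between Ribose and Vehicle, apart from Per3. Per1 had 5.48, 6.31 and 4.81 FPKM in Ribose libraries, against 4.49, 4.80 and 6.50 FPKM in Vehicle libraries (log2 change 0.07, limma adjusted p = 1). Per2 had 1.36, 1.53 and 4.08 FPKM in Ribose libraries, against 1.30, 2.22 and 1.74 FPKM in Vehicle libraries. Ribose replicate 3 alone lay far above the other libraries for Per2, and the log2 change was 0.19 (95% interval -0.64 to 1.03, limma adjusted p = 1). Without that library the log2 change of Per2 was -0.16. Per3 (chr4:151003652-151044665, minus strand), a Per paralog, had 0.852, 0.931 and 0.725 FPKM in Ribose libraries, against 1.04, 0.949 and 0.942 FPKM in Vehicle libraries. All Ribose libraries were below all Vehicle libraries, with a mean 0.857 times theirs, and the gene's mean was under the minimum mean of 1 FPKM for testing. With no such minimum, the log2 change of Per3 was -0.11 (SE 0.192, limma unadjusted p = 0.595, adjusted p = 0.979).

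Cry1 had 12.1, 4.90 and 3.08 FPKM in Ribose libraries, against 3.29, 9.09 and 4.84 FPKM in Vehicle libraries. One library in each group was high, Ribose replicate 1 and Vehicle replicate 2, so that the means of 6.70 ± 4.78 FPKM in Ribose libraries and 5.74 ± 3.00 FPKM in Vehicle libraries (SD, n = 3 each) rest on them. The log2 change was 0.11 (95% interval -1.02 to 1.23, limma adjusted p = 1), and it ranged from -0.37 to 0.48 over single left-out libraries. Cry2 had 36.6, 32.9 and 29.1 FPKM in Ribose libraries, against 33.5, 35.2 and 30.7 FPKM in Vehicle libraries. Cry2 was the closest of all between the groups (log2 change -0.01, 95% interval -0.31 to 0.28, limma adjusted p = 1), and that sign turned under equal totals and quantile normalization.

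Nr1d1 had 3.30, 3.19 and 3.59 FPKM in Ribose libraries, against 4.87, 3.05 and 3.74 FPKM in Vehicle libraries (log2 change -0.15, 95% interval -0.66 to 0.36, limma adjusted p = 1). Nr1d2 had 13.1, 6.34 and 11.2 FPKM in Ribose libraries, against 9.19, 6.52 and 11.2 FPKM in Vehicle libraries. In each group replicate 2 was low for Nr1d2, and the log2 change was 0.14 (95% interval -0.54 to 0.83, limma adjusted p = 1). Dbp had 1.89, 2.79 and 3.89 FPKM in Ribose libraries, against 2.82, 2.91 and 4.91 FPKM in Vehicle libraries. Replicate 3 of each group was the highest for Dbp, the groups overlapped, and the log2 change was -0.24 (95% interval -0.92 to 0.44, limma adjusted p = 1).

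**Figure D2:**
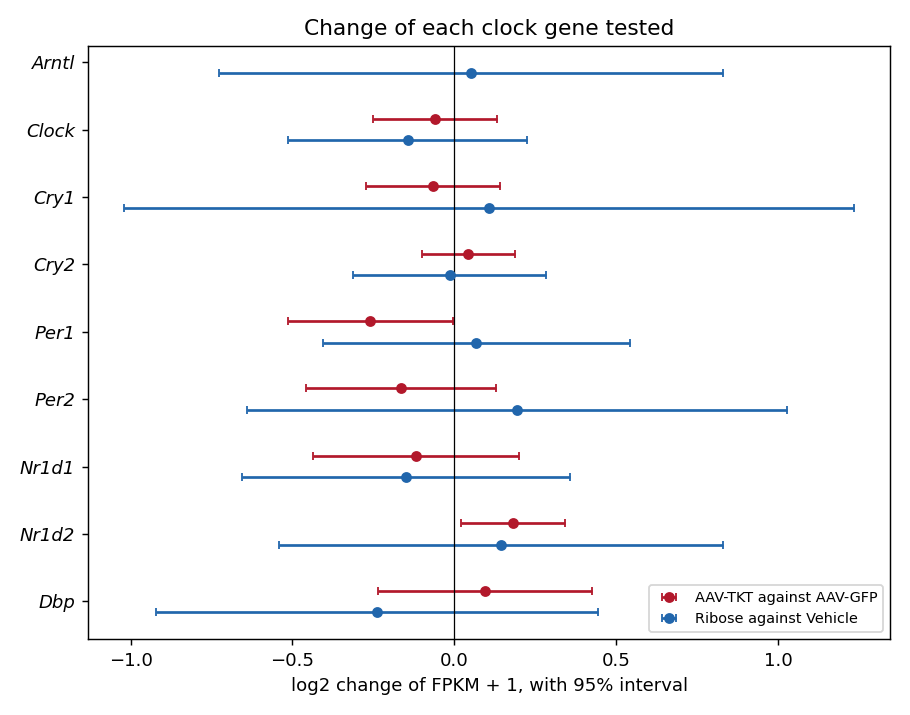
Log2 change on log2(FPKM + 1) with its 95% interval for each clock gene tested, AAV-TKT against AAV-GFP and Ribose against Vehicle. The AAV intervals of Nr1d2 (0.02 to 0.34) and Per1 (-0.51 to -0.0054) leave out 0, every ribose interval includes 0, and the widest is that of Cry1 (-1.02 to 1.23).

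FPKM are per length, so the genes can be ordered by level within a table. Cry2 was the highest in every library of both tables, at 30.4 to 33.0 FPKM in the AAV table and 29.1 to 36.6 FPKM in the ribose table. Clock came next in the AAV table, at 12.0 to 14.5 FPKM, followed by Nr1d2 at 9.46 to 11.4 FPKM, and the ranges of these 3 genes did not touch. Per1, Cry1, Dbp and Nr1d1 followed at 2.42 to 5.83 FPKM, with each neighbour in that order overlapping the next, and Per2 was the lowest at 1.51 to 2.13 FPKM. In the ribose table Cry2 again stood clear of the rest, Clock and Nr1d2 overlapped, and Arntl (0.796 to 2.39 FPKM) and Per3 (0.725 to 1.04 FPKM) closed the order with overlapping ranges.

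The effects of the 2 treatments were then set against each other in one limma fit over the 12853 genes that averaged 1 FPKM or more in each table. One variance per gene served all 4 groups. No clock gene passed out of 8, where 0.00778% of all genes did, and 0 of the 8 had an unadjusted p under 0.05, against 6.85% of all genes. The smallest p was that of Per1, whose AAV-TKT effect minus its Ribose effect was -0.33 (95% interval -0.81 to 0.15, limma adjusted p = 0.833). The same difference was -0.36 for Per2 (95% interval -1.18 to 0.46, limma adjusted p = 0.917) and 0.33 for Dbp (95% interval -0.37 to 1.04, limma adjusted p = 0.904). The remaining 5 genes lay between -0.17 for Cry1 and 0.08 for Clock.

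Opposed clock phases were read per library as a check of the time of collection. The phase index was the mean log2(FPKM + 1) of Dbp, Per1, Per2, Per3, Nr1d1 and Nr1d2 minus that of Arntl, so that a tissue taken near the Arntl peak has a low index. It was 0.28, 0.72 and 1.45 in Ribose libraries, against 0.50, 0.99 and 1.16 in Vehicle libraries. Replicate 1 was the lowest and replicate 3 the highest in each group, and the groups overlapped. Arntl is the only gene subtracted, so the index leans on that single gene of low level. Ribose replicate 1 had the highest Arntl (2.39 FPKM) and the lowest index. Ribose replicate 3 had the lowest Arntl (0.796 FPKM) and the highest index. Among the genes averaged, only Per2 and Dbp had Pearson correlations below 0 with Arntl in these libraries. The group means were 0.82 ± 0.59 in Ribose libraries and 0.88 ± 0.34 in Vehicle libraries (SD, n = 3 each), a difference of -0.07 on the log2 scale, under the spread within either group. The FPKM ratio of Dbp to Arntl was 0.791, 1.93 and 4.89 in Ribose libraries, against 1.41, 2.80 and 4.15 in Vehicle libraries, so the groups overlapped over most of their range.

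Arntl was then correlated with each of the 6 day-phase genes over the 6 ribose-experiment libraries, 6 relations in all, with exact permutation p-values over 720 pairings. Per2 had a Pearson r of -0.838 (two-sided exact permutation p = 0.0208, adjusted 0.125) and a Spearman rho of -0.943 (exact permutation p = 0.0167, adjusted 0.1). Dbp had an r of -0.733 (exact permutation p = 0.0958, adjusted 0.288) and a rho of -0.771 (exact permutation p = 0.103, adjusted 0.308). Neither passed after adjustment over the 6 relations. Without the libraries farthest from the median of Arntl, Ribose replicate 1 and Vehicle replicate 1, r was -0.948 for Per2 and -0.305 for Dbp, so the Dbp relation rests on those libraries. Around the group means, r was -0.889 for Per2 and -0.759 for Dbp.

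The other 4 day-phase genes had correlations above 0 with Arntl, none of which passed. Nr1d1 had an r of 0.297 (exact permutation p = 0.593) and a rho of 0.2 (p = 0.714, exact), and Nr1d2 an r of 0.265 (exact permutation p = 0.586) and a rho of 0.257 (p = 0.658, exact). Per3 had an r of 0.418 (exact permutation p = 0.428) and a rho of 0.2 (p = 0.714, exact), and Per1 an r of 0.0107 (exact permutation p = 0.976) and a rho of 0.0286 (p = 1, exact). Adjusted over the 6 relations, these 4 genes had permutation p-values of 0.712 to 1. Without the farthest libraries r was -0.311 for Nr1d1, -0.556 for Nr1d2, 0.777 for Per3 and 0.81 for Per1. Around the group means, r was 0.368 for Nr1d1, 0.255 for Nr1d2, 0.683 for Per3 and -0.00567 for Per1.

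**Figure D3:**
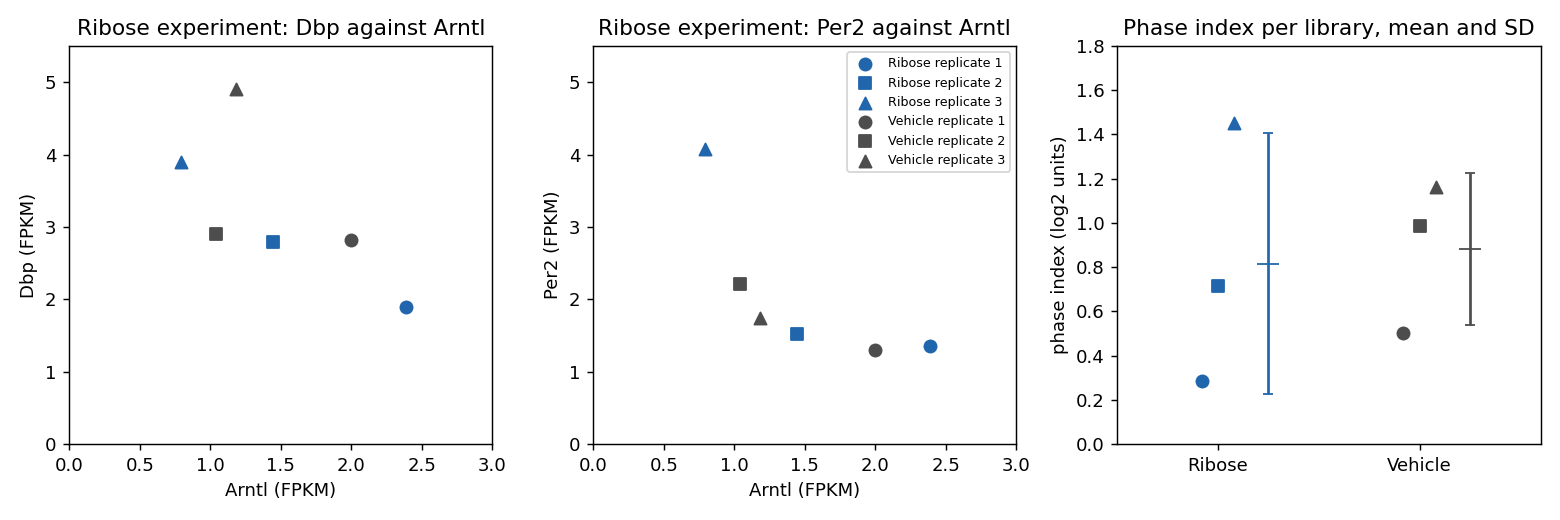
Dbp and Per2 against Arntl in FPKM, 1 point per ribose-experiment library, and the phase index of each library (log2) with group mean and SD. Ribose replicate 3, with the lowest Arntl (0.796 FPKM), has the highest Per2 (4.08 FPKM) and the highest index (1.45), and the Ribose and Vehicle libraries overlap. Arntl and Per2 both enter the index, so it is not a separate reading of phase.

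Since Arntl was not listed in the AAV table, an index with Clock and its paralog Npas2 in its place was added after the data were seen. It was -0.24, -0.45 and -0.28 in AAV-TKT libraries, against -0.24, -0.33 and -0.13 in AAV-GFP libraries. The groups overlapped and replicate 2 was the lowest in each. The means were -0.32 ± 0.11 in AAV-TKT libraries and -0.23 ± 0.10 in AAV-GFP libraries (SD, n = 3 each), a difference of -0.09 that came to 0.02 without Per1 and Per2. Clock is known to cycle weakly in many tissues, so this index is a poorer stand-in for phase than that with Arntl.

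The clock genes varied more between libraries of a group in the ribose experiment than in the AAV experiment, as did genes at large. The SD within groups on log2(FPKM + 1) had a median of 0.367 over the 9 clock genes tested in the ribose table, against 0.257 over all genes tested. In the AAV table the median was 0.0992 over 8 clock genes, against 0.128 over all genes tested. Cry1 stood at the 94.2th percentile of all genes in the ribose table and at the 6.6th in the AAV table. Per2 (79.7th) and Nr1d2 (76.4th) followed in the ribose table, where Cry2 was the steadiest clock gene (16.7th). In the AAV table Nr1d2 (0.9th) and Cry2 (1.8th) were among the steadiest genes, and Dbp (72.7th) and Nr1d1 (67.5th) varied most.

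**Figure D4:**
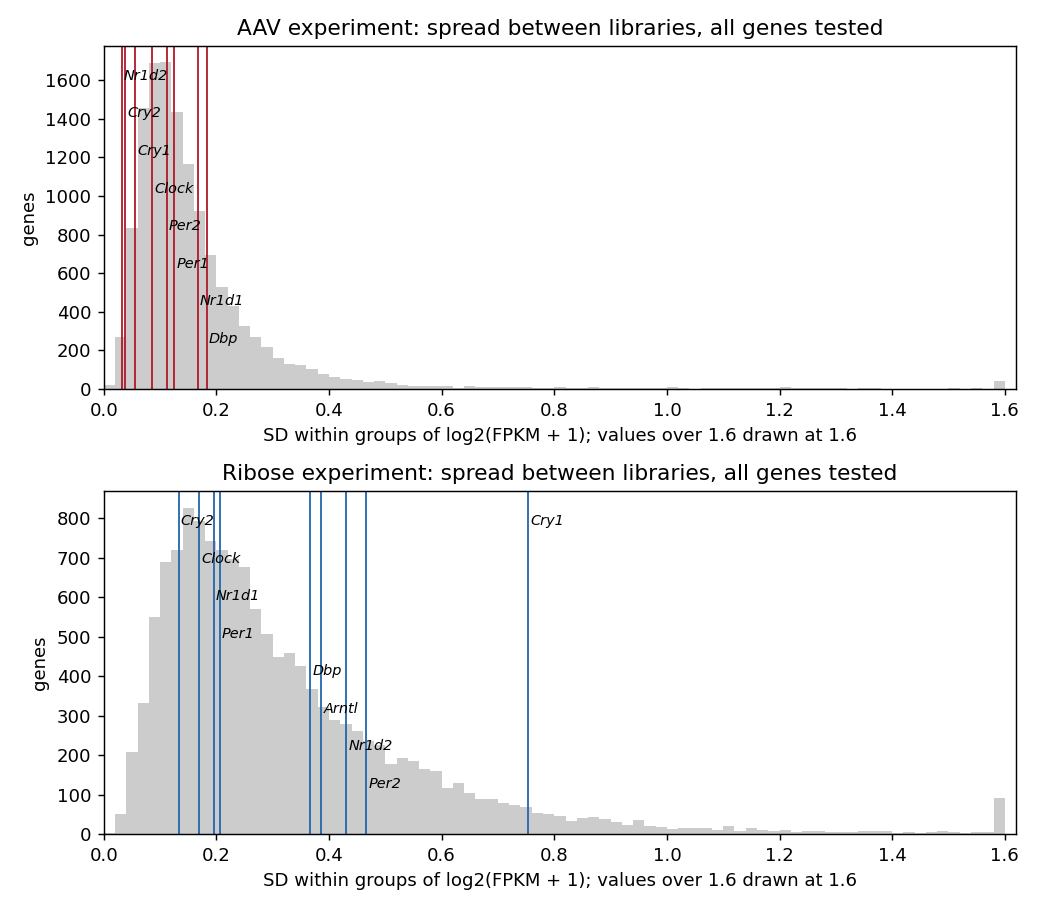
Histogram of the SD within groups on log2(FPKM + 1) over all genes tested in each table, with a line for each clock gene. In the ribose table the clock genes run from Cry2 (0.133) to Cry1 (0.753), while Nr1d2 (0.0322) and Cry2 (0.0380) lie at the left edge in the AAV table.

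Across 12 libraries centred on their group means, the 5 genes whose values were most like those of Dbp among 12852 compared were Gtf3c4 (r = 0.942), Epb41l1 (r = 0.938), Coq4 (r = 0.930), Pde4a (r = 0.924) and Cklf (r = 0.919). Of the clock genes, Per2 was at 0.628 (rank 553), Per1 at 0.416, Cry1 at -0.551 and Clock at -0.582. Cry2, at -0.786 (rank 12721), was among the most opposed. Wee1, a cell-cycle kinase with a known clock-driven promoter in mouse liver, was at 0.736 (rank 181). Other genes known to be driven by the clock were less like Dbp, among them Nr1d1 at 0.270, Nr1d2 at 0.148, Usp2 at 0.068, Por at 0.014 and Tef at -0.114. These correlations are a description, in which the ribose experiment weighs more, since the SD of Dbp within groups was 0.367 there and 0.183 in the AAV experiment.

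The wider pathway was followed in 15 further genes of the loop and its PAR bZIP outputs and in 5 rhythmic output genes. Of the 15, 12 were tested in each experiment, and limma called 0 in either one. In the AAV comparison 4 had positive and 8 negative log2 changes, with a median of -0.06, against 0.01 over all genes tested. In the ribose comparison 6 were positive and 6 negative, with a median of -0.01, against -0.02 over all genes tested. None of them had an unadjusted p under 0.05 in either comparison.

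Kinases that set the lifetime of PER proteins were among the genes with the smallest p in the AAV comparison. Csnk1d, a casein kinase that phosphorylates PER, had 74.9, 74.1 and 71.9 FPKM in AAV-TKT libraries, against 67.0, 68.2 and 65.7 FPKM in AAV-GFP libraries. All AAV-TKT libraries were higher (log2 change 0.13, limma adjusted p = 0.472). Csnk1e, its paralog, had a log2 change of -0.15 (limma adjusted p = 0.527). Bhlhe41 (DEC2), a repressor that competes for E-boxes, had 11.8, 11.8 and 11.5 FPKM in AAV-TKT libraries, against 12.4, 14.2 and 12.5 FPKM in AAV-GFP libraries. Here all AAV-TKT libraries were lower (log2 change -0.15, limma adjusted p = 0.518). Of the 12 genes tested, 1 lay higher and 1 lower without overlap, where 18.5% of all genes did not overlap.

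Of the 5 output genes, 0 were called and 0 had an unadjusted p under 0.05 in limma in either experiment. In each experiment 1 of the 5 had groups that did not overlap. Over all genes the share was 18.5% in the AAV comparison and 9.63% in the ribose comparison. Wee1 had 3.66, 3.60 and 3.42 FPKM in AAV-TKT libraries, against 3.24, 3.36 and 2.95 FPKM in AAV-GFP libraries, with no overlap (log2 change 0.13, limma adjusted p = 0.634). Por, the reductase that serves cytochrome P450 enzymes, had 15.6, 12.9 and 14.4 FPKM in Ribose libraries, against 17.6, 15.7 and 17.7 FPKM in Vehicle libraries. All Ribose libraries were lower for Por (log2 change -0.24, limma adjusted p = 1). Usp2, a deubiquitinase whose transcript is known to cycle, had 5.17, 4.47 and 3.75 FPKM in Ribose libraries, against 3.05, 2.64 and 3.88 FPKM in Vehicle libraries. Ribose replicate 3 lay under Vehicle replicate 3 for Usp2, so the groups overlapped (log2 change 0.39, limma adjusted p = 1).

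Signals that act on Per1 and Per2 outside the loop were set beside them. All 8 immediate early genes, the fast response to neuronal activity, had negative log2 changes in the AAV comparison, with a median of -0.34, and 7 of 8 under quantile normalization. limma called 0 of them, and 1, Egr1, had an unadjusted p under 0.05 (0.0121, limma adjusted p = 0.383), where 10.6% of all genes did. Egr1, a zinc-finger transcription factor, had 28.9, 16.5 and 22.9 FPKM in AAV-TKT libraries, against 38.5, 30.5 and 35.6 FPKM in AAV-GFP libraries, with no overlap. Summed over the 8 genes, the level ran from 127 to 230 FPKM in AAV-TKT libraries, against 181 to 226 FPKM in AAV-GFP libraries. In the ribose comparison 3 were positive and 5 negative, with a median of -0.10, and 0 were called, with 0 at an unadjusted p under 0.05. The 7 glucocorticoid targets had medians of 0.004 in the AAV comparison and -0.05 in the ribose comparison, and the 2 temperature-responsive genes had medians of 0.04 and -0.01, with 0 called and 0 at an unadjusted p under 0.05 in limma. These medians cover genes of both signs. In the AAV comparison the groups did not overlap for 3 of the 7 glucocorticoid targets, Tsc22d3 (log2 change 0.14, limma adjusted p = 0.501), Errfi1 (0.12, limma adjusted p = 0.549) and Klf9 (-0.11, limma adjusted p = 0.547), nor for Cirbp of the temperature-responsive pair (0.17, limma adjusted p = 0.551), where 18.5% of all genes did not overlap. The part of these signals in the Per1 and Per2 values was not tested.

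Replicate 2 was the lowest library of its group for all 8 immediate early genes in all 4 groups, as it was for 625 of 12853 genes (4.86%). The same held for 159 genes (1.24%) with replicate 1 and 217 genes (1.69%) with replicate 3. Fos, the prototype of these genes, had 98.1, 41.8 and 60.5 FPKM in AAV-TKT libraries, against 87.3, 68.2 and 82.7 FPKM in AAV-GFP libraries. Fos had 76.8, 26.4 and 62.0 FPKM in Ribose libraries, against 67.7, 38.7 and 84.3 FPKM in Vehicle libraries. Glial markers were lowest in replicate 2 of every group as well. The mean level of the satellite glia list in replicate 2, from the mean of its table on log2(FPKM + 1), was -0.63 in AAV-TKT, -0.07 in AAV-GFP, -1.39 in Ribose and -0.27 in Vehicle. That of the Schwann cell list was -0.44 in AAV-TKT, 0.06 in AAV-GFP, -1.05 in Ribose and -0.04 in Vehicle. The part of these cells in the replicate 2 values was not tested. Of the 8 clock genes compared, Nr1d1 alone was lowest in replicate 2 of every group, and the labels do not say that equal numbers mark a shared day.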

How the data were processed

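FPKM were computed by the authors, in 1 deposited table per experiment. Per the labels' protocols, RNA was purified with a micro column kit and made into directional libraries. Per the submitters' processing notes, bcl2fastq 2.20, FastQC, Trim Galore and GRCm38 were used. The aligner, counter and annotation release are unnamed: not given in the sources used here. Identifiers were matched to GENCODE gene models of GRCm38. The lowest gene mean in the AAV table was 1.00041 FPKM, so it appears to have been filtered, and levels were not compared across tables. Columns headed as controls of the ribose table were read as Vehicle. Depth is unknown. Genes listed at 0 made up 0.372% to 0.607% of the AAV libraries, 11.5% to 14.5% of the Ribose libraries and 5.76% to 11.0% of the Vehicle libraries.

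Groups were compared with limma 3.58.1 (R 4.3.3, intensity trend) on log2(FPKM + 1), keeping genes that averaged 1 FPKM or more, each table alone. Permutation tests used scipy 1.17.1. Scripts were tested on simulated data. The clock genes, gene lists and tests were chosen with earlier results of these data known. All 10 clock genes are named, with the 5 genes most like Dbp. The 8 genes named from the wider pathway lists, Egr1, Fos, Tsc22d3, Errfi1, Klf9 and Cirbp were picked from those lists after their values were seen, and 1 list member is not reported here. Likeness to Arntl, its correlations and its index could not be had in the AAV table. Alternatives were pseudocounts of 0.1 and 0.5, no minimum or 5 FPKM, a robust prior, quantile normalization, equal totals, median-of-ratios scaling, a replicate block and each library left out. The omission of both replicates 2 together was chosen after seeing the data.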

Additional observations from a re-analysis of the deposited data

How the results depend on the processing

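Clock genes called numbered 0 in each comparison under every alternative run. Counts over all genes moved, from 2 in the AAV comparison to 5 with a pseudocount of 0.1, 4 with a minimum mean of 5 FPKM, 4 with equal totals, 36 without replicate 2 of both groups, and 1 to 40 with single libraries left out (40 without AAV-GFP replicate 2). The count of 1 in the ribose comparison became 2 with a pseudocount of 0.5, 2 with equal totals, 3 without replicate 2 of both groups, and 1 to 4 with single libraries left out. The count of 1 for the difference of effects became 2 with a pseudocount of 0.1, and 1 to 3 with single libraries left out. The cause was not tested. Median-of-ratios factors were 1.007 in every ribose-table library, so that scaling moved nothing there.

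With the replicate block, limma called 0 genes in the AAV comparison, with 1592 at an unadjusted p under 0.05, and 1 gene each in the ribose comparison and the difference. Deviations of same-numbered libraries correlated at 0.0326, 0.0707 and -0.0144 in the AAV table and at 0.0418, 0.357 and 0.16 in the ribose table, so the numbers were not taken as pairs.

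Signs of log2 changes turned for Cry1 (0.0066) and Cry2 (-0.0027) with quantile normalization in the AAV comparison, and for Cry2 (-0.0255) with equal totals. In the ribose comparison they turned for Arntl (-0.0951) and Cry2 (0.0176) with quantile normalization, for Cry2 (0.0031) with equal totals, and for Per1 (-0.0646), Arntl (-0.0521) and Cry2 (0.0255) without replicate 2 of both groups. For the difference of effects they turned for Nr1d1 (-0.0336), Nr1d2 (-0.0422) and Cry2 (-0.0286) with equal totals and for Cry2 (-0.0203) with quantile normalization.

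With single libraries left out, the ribose log2 changes ran from -0.37 to 0.48 for Cry1, -0.0203 to 0.20 for Per1, -0.0491 to 0.42 for Nr1d2, -0.18 to 0.28 for Arntl, -0.16 to 0.40 for Per2 and -0.0924 to 0.0690 for Cry2. The differences of effects ran from -0.54 to 0.30 for Cry1, -0.11 to 0.16 for Nr1d1, -0.24 to 0.23 for Nr1d2, -0.0048 to 0.21 for Clock and -0.0265 to 0.13 for Cry2. In the AAV comparison no clock gene turned sign with a library left out, and Per1 ran from -0.35 to -0.20 and Nr1d2 from 0.16 to 0.20. Others moved by over 1.5 times, with Dbp from 0.0132 to 0.23, Nr1d1 from -0.22 to -0.0407 and Clock from -0.0983 to -0.0116 in the AAV comparison, and Dbp from -0.43 to -0.0354 and Nr1d1 from -0.28 to -0.0099 in the ribose comparison. The difference of effects of Per2 ran from -0.56 to -0.0057. The ribose phase index difference ran from -0.38 to 0.20 with single libraries left out. The AAV index difference, -0.0894, became 0.0165 without Per1 and Per2. The correlation of Arntl with Per1 became -0.00567 around the group means, and those with Nr1d1 and Nr1d2 became -0.311 and -0.556 without the farthest libraries.

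Changes as small as most of those seen here lie within the intervals of 3 against 3 libraries, so a clock gene that did not pass cannot be taken as unchanged.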

Other observations

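A pair of clock outputs outside the rules for naming genes, chosen after their values were seen, varied widely between libraries of a group in the ribose experiment. Hlf, a PAR bZIP factor related to Dbp, had 1.82, 2.23 and 5.70 FPKM in Ribose libraries, against 7.57, 1.20 and 0.917 FPKM in Vehicle libraries. The highest and the 2 lowest libraries were all Vehicle. Ciart, a repressor of CLOCK and BMAL1, was listed at 0, 3.66 and 0 FPKM in Ribose libraries, against 0.750, 0.438 and 1.13 FPKM in Vehicle libraries. Both ends of its range were Ribose libraries. The mean of Ciart over the ribose experiment was under the minimum of 1 FPKM for testing. Genes listed at 0 made up 11.5% to 14.5% of the Ribose libraries.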
